A study of Mus musculus with 272 samples.

Results

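The heavy fractions of ribosome gradients were compared between the mouse oocyte, arrested at the germinal vesicle (GV) stage, and the blastocyst, the embryo that is about to implant. The libraries were fractions 6 to 10 of each gradient at these 2 stages, 30 of the 272 libraries of the series, and the 5 fractions of a gradient were averaged into 1 value per gene, so each stage had n = 3 gradients, lettered A to C. Of 15771 genes in the table, 12682 reached a mean of 1 CPM (reads of a gene scaled to one common library total, with no scaling for length) in at least 3 of the 6 gradients and were tested. The GV group was about 100 GV oocytes per gradient, and the blastocyst group about 100 blastocysts per gradient, with no treatment named for either. Both were lysed with cycloheximide, which holds ribosomes on their transcripts, and both have 4 transcriptome libraries, each a pool of 20 from the batch that was also used for the gradients. No strain, age or hormone treatment of the animals was given in the sources used here, and nothing states that the gradients came from separate animals, so p-values measure the spread between these pooled samples. The fractions carry numbers only, so calling 6 to 10 heavy, where transcripts with several ribosomes sediment, and 1 to 5 light follows the usual order of collection.

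A growing oocyte makes and stores transcripts that are used after transcription stops, and many are held back from ribosomes until meiosis resumes. After fertilization these maternal transcripts are cleared and the genome of the embryo takes over. By the blastocyst stage the first cell types have formed: an outer trophectoderm, which pumps fluid and later makes placenta, and an inner cell mass, which holds the pluripotent epiblast and the primitive endoderm. A transcript's share of the heavy fractions depends both on how much of it the cell holds and on how it is loaded with ribosomes, so the heavy fractions are set here beside the transcriptome and beside the light fractions.

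Marker genes of the oocyte and the trophectoderm matched the stage labels, and those of the inner cell mass and primitive endoderm were mixed. All of the oocyte markers Gdf9, Bmp15, Zp3, Mos and Figla were lower in blastocyst heavy fractions, and the trophectoderm markers Cdx2, Eomes, Gata3, Krt8 and Krt18 were all higher. Among markers of the inner cell mass and primitive endoderm, given below, Nanog, Pou5f1 and Gata6 rose and Gata4 fell. The stages overlapped at Sox2, Sox17 and Pdgfra. Markers of follicle cells, which surround the oocyte, were also summed. The level of 7 of them ran from 46.7 to 226.6 CPM in the 3 GV gradients and from 58.3 to 65.1 CPM in blastocyst, so the stages overlapped. Inha, an inhibin subunit of granulosa cells, stood at 23.01, 64.4 and 188.9 CPM in GV gradients A, B and C and at most 0.173 CPM in blastocyst. In heavy fractions 1 of 5 tested markers was higher in blastocyst, Amhr2, which neither edgeR nor DESeq2 called, and 3 were lower. GV gradient C held most of the summed level, and the part of such cells in the results below was not tested. Of the blood and stroma list, 3 genes were analysed. They summed to at most 0.0192 CPM in GV and to 30.3 to 36.1 CPM in blastocyst, of which the antigen-presentation gene Cd74 gave 19.2, 24.4 and 24.6 CPM.

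Heavy libraries held 14.3 to 40.5 M reads in GV and 33.2 to 43.2 M in blastocyst. The heavy means of 2 gradients of the same stage correlated across genes with r of 0.950 to 0.958 in GV and 0.971 to 0.979 in blastocyst, against 0.462 to 0.490 between the stages. The 2 stages were picked as those with the best agreement of gradients in the series, so high values within a stage follow from that choice. These values describe libraries of 1 protocol and carry no test.

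The stages differed at most genes. The moderated test of limma on log2(mean CPM + 1) called 9271 of 12682 genes (73.1%) at an adjusted p under 0.05 and a difference of at least 1 on the log2 scale. Of these, 3832 (30.2% of genes tested) were higher in blastocyst and 5439 (42.9%) were lower, and at 10020 genes (79.0%) the 2 groups of gradients did not overlap. All differences below are blastocyst minus GV on this log2 scale unless stated. The median over all genes tested was -0.54, which became 0.00013 after quantile normalization, -0.21 with edgeR and -0.25 with DESeq2, so gene lists are read against the median of all genes. With 3 against 3 an exact permutation test of a single gene cannot go below p = 0.1.

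Transcript length moved with the stage difference. Genes were grouped by the median length of their annotated coding transcripts. In heavy fractions the median difference was 0.47 for genes under 1000 bases (2651 tested), 0.06 for 1000 to 2000 bases, -1.04 for 2000 to 4000 bases and -1.65 for genes over 4000 bases (1950 tested). In the transcriptome the same classes had medians of 0.81, 0.18, 0.24 and 0.43. Long transcripts were thus lower in blastocyst gradients but not in blastocyst pools. Against the transcriptome of the same stage, genes over 4000 bases had a median of -1.53, -1.70 and -1.41 in the heavy fractions of blastocyst gradients A, B and C, and of -0.11, 0.06 and 0.00 in those of GV. The light fractions of the blastocyst showed the same lack, with -1.32, -1.13 and -0.99, and the light fractions of GV had -0.62, -0.30 and -0.12. Whether this came from the RNA of the gradients or from the making of the libraries was not tested. Values with the length trend removed, an alternative added after the data were seen, are given below where they move a result. The ribosome biogenesis list then had 0 lower genes, the chaperones 1 and oxidative phosphorylation 4.

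**Figure D1:**
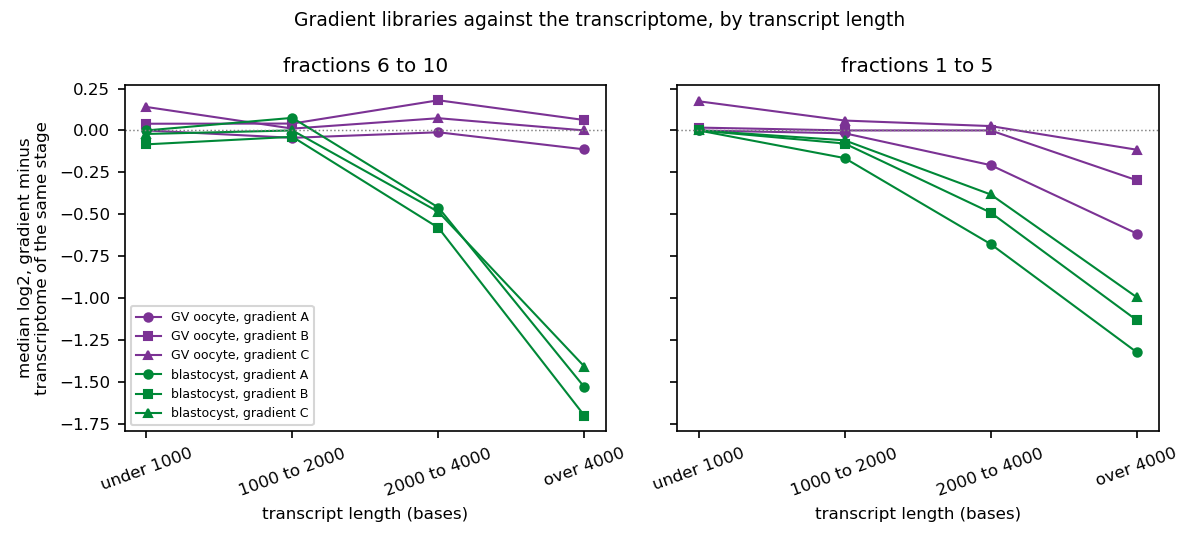
Median over genes of the gradient level minus the transcriptome level of the same stage (log2 of CPM + 1, y axis) in 4 classes of transcript length (x axis, bases), for fractions 6 to 10 (left) and 1 to 5 (right); each line is 1 gradient. In the heavy fractions the 3 blastocyst gradients fall to between -1.41 and -1.70 for genes over 4000 bases, and the 3 GV gradients stay between -0.11 and 0.06.

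The largest falls were genes of the oocyte. Gdf9, a growth factor with which the oocyte steers its follicle cells, stood at 8128, 8362 and 7674 CPM in GV gradients A, B and C and at 0.503, 0.207 and 0.053 CPM in blastocyst (difference -12.66 ± 0.20 SE, adjusted p = 2.3e-08). The 12 largest falls were picked among genes whose groups did not overlap, so their separation follows from that choice. Mos, the kinase that holds the mature egg in meiotic arrest, had 2969, 2473 and 2282 CPM in GV. In the blastocyst Mos was at the floor of 3 reads per gradient, which makes it at least 163200-fold lower. H1f8, the linker histone of the oocyte, fell by 11.85 on the log2 scale, and Bcl2l10, a BCL2-family member abundant in oocytes, fell by 12.08. Btg4, which brings the deadenylase to maternal transcripts as they are cleared, went from 2165, 2397 and 2861 CPM to at most 0.0302 CPM. Zbed3, a partner of the subcortical maternal complex, had the highest GV levels among the falls, 12260, 9096 and 9018 CPM, and fell to 1.52, 2.47 and 1.58 CPM. Tcl1b1, C86187, Ccno, Umodl1, Omt2b and E330021D16Rik made up the rest, with differences between -12.22 and -11.06. Transcriptome pools were lower too for all 12, by 8.04 to 12.11 on the log2 scale.

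The largest rises were genes at or near 0 reads in the oocyte. Calcoco2, an autophagy receptor, was at 0 CPM in all 3 GV gradients and at 3312, 3815 and 3057 CPM in blastocyst, at least 130000-fold higher. Krt18, the keratin that pairs with Krt8 in the trophectoderm, was also at 0 in GV and reached 2219, 2197 and 3939 CPM. Cd63, a tetraspanin of late endosomes, went from at most 0.522 CPM to 3096, 3262 and 3745 CPM (11.44 ± 0.22, adjusted p = 2.7e-08). Fabp3, a fatty acid binding protein, was at 0 in GV and at 2530, 1586 and 2571 CPM in blastocyst. Pdxk, the kinase that activates vitamin B6, rose by 10.13, and Folr1, a folate receptor, by 9.57. Tagln2, an actin-binding protein, rose by 9.85. Crxos, Gm12617, Timd2, Renbp and St6galnac4 completed the 12, with differences of 9.37 to 11.61. Each of the 12 was higher in blastocyst pools as well, by 6.76 to 11.48.

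**Figure D2:**
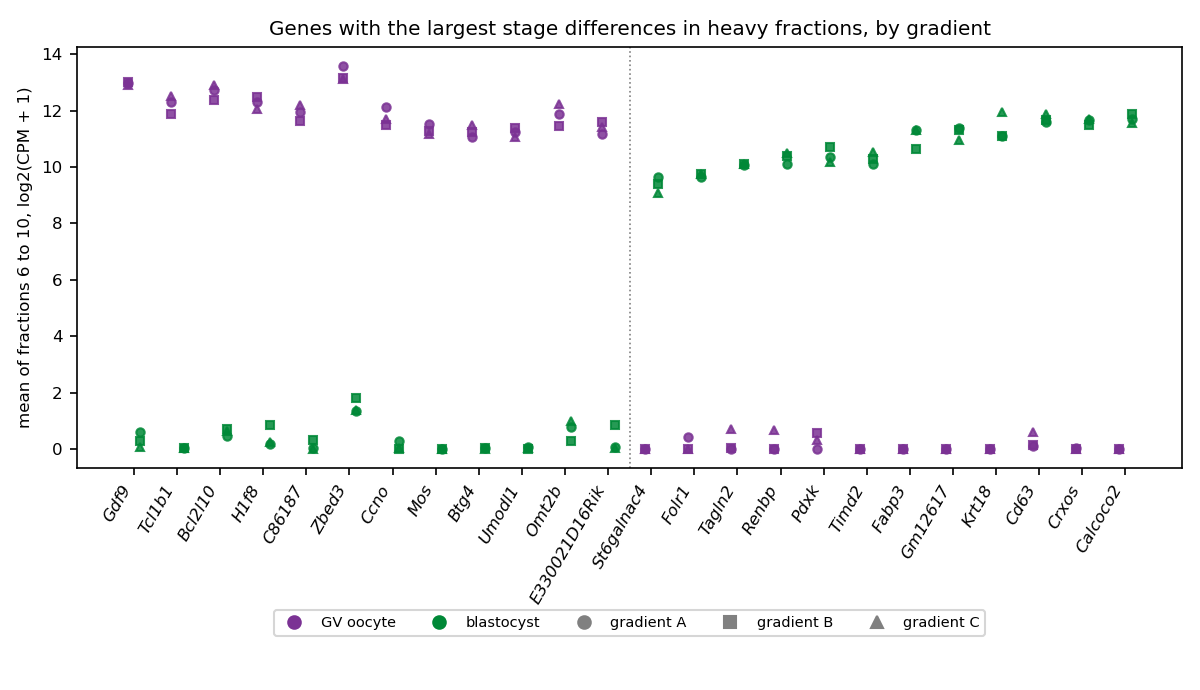
Level of each gene in fractions 6 to 10 (log2 of mean CPM + 1, y axis) for the 12 largest falls (left of the dotted line) and the 12 largest rises (right); 1 point is 1 gradient, purple for GV oocyte and green for blastocyst. For each of the 24 genes the 3 gradients of one stage lie near 0 and far from the 3 of the other. Gdf9 is at 7674 to 8362 CPM in GV against at most 0.503 CPM in blastocyst. The genes were picked among those whose groups did not overlap, so the separation follows from that choice.

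The oocyte's coat and fertilization genes fell as a group with 1 exception. Of 6 tested, 5 were lower and the median was -10.01, or -10.7 with genes at 0 set to their bound. Zp3, which builds the zona pellucida and binds sperm, ran at 5883, 13300 and 9780 CPM in GV and at 11.4, 16.3 and 21.5 CPM in blastocyst, a fall of 9.08 on the log2 scale (± 0.32 SE). Gradient B held the most, and the stages did not overlap. Izumo1r, the egg receptor for the sperm protein IZUMO1, was at 1454, 2149 and 1384 CPM in GV and at 0 in blastocyst, at least 105400-fold lower. Astl, which cleaves the zona after fertilization, fell by 10.49, Zp1 by 10.92 and Zp2 by 9.53. Cd9, a tetraspanin needed for sperm fusion that many cells express, was the exception, at 91.5, 140 and 96.1 CPM in GV and 662, 547 and 974 CPM in blastocyst (2.71 ± 0.25). In the transcriptome Cd9 differed by -0.29, which was not called.

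The promoter of Zp3 is shown because the transcription factor FIGLA, which drives zona genes, binds E-boxes, and Figla itself went from 27.6, 16.5 and 14.6 CPM to 0.502, 0.141 and 0 CPM. The window is chr5:135979855-135980154 on the plus strand (GRCm38.p6, RefSeq), 250 bases before to 50 after the annotated start. Capitals mark each match of CANNTG, which reads alike on both strands.
Zp3: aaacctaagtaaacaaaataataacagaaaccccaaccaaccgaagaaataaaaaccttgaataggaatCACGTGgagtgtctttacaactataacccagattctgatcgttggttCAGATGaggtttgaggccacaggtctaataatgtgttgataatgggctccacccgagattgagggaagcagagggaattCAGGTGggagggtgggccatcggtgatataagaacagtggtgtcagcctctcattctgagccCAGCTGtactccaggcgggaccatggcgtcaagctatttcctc
The window holds 4 matches. Of 27025 RefSeq promoter windows of this length, 72.1% hold at least 1, so the motif is common and a match is a description only.

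Among the oocyte's secreted factors and transcription factors, 9 of 11 tested were lower, none was higher and the median was -8.15 (-10.03 with bounds). Bmp15, the partner of Gdf9, fell by 10.03, and Oosp1, a secreted oocyte protein, by 10.08. Nobox, a homeobox factor of the growing oocyte, was at 688, 846 and 680 CPM in GV and at 0 in blastocyst. Taf4b and Sohlh1 were not called, with -0.9 and -0.7. Of the subcortical maternal complex and Nlrp genes, which form a structure under the oocyte membrane needed for the first cleavages, 14 of 15 were lower and the median was -7.21 (-9.62 with bounds). Nlrp5 stood at 183, 395 and 237 CPM in GV and at 0, 0 and 3.14 CPM in blastocyst. Nlrp14 fell by 10.13 and Nlrp4f by 9.62. Padi6 fell by 6.04 and kept 25.4 to 31.6 CPM in blastocyst. Khdc3 alone was higher, from 265, 207 and 224 CPM to 1337, 1923 and 1621 CPM, with the same difference in the transcriptome (2.79). Members of the Nlrp4 and Nlrp9 groups are close copies, and reads could be split among them.

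Regulators of stored maternal transcripts were lower at 16 of 17 genes, none was higher, and the median was -5.73. Zar1, a protein that binds and stabilises maternal transcripts, went from 2348, 2019 and 2041 CPM to at most 0.638 CPM. Pabpc1l, the oocyte's poly(A)-binding protein, fell by 8.89, and Cpeb1, which directs cytoplasmic polyadenylation, by 8.55. Igf2bp3 differed by -0.5 and was not called. In the transcriptome 12 of these 17 were lower and 3 were higher, with a median of -3.03. The heavy difference lay below the transcriptome difference at 11 of 17 genes and above it at 2, against 36.4% and 14.8% of all genes tested for it. With the length trend removed, 9 of 17 lay below the transcriptome, against 3066 of 14076 among all genes. In that fit 13 were lower in heavy fractions, against 4436 of 12526 among all genes.

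Genes of meiotic maturation were mixed. Of 18 tested, 12 were lower, 2 higher and 4 not called. Wee2, the oocyte kinase that keeps CDK1 inactive, was at 381, 508 and 326 CPM in GV and at most 0.00908 CPM in blastocyst. Fbxo43, an inhibitor of the anaphase-promoting complex, fell by 7.07. Ccnb1, the mitotic cyclin, went from 1179, 1652 and 1262 CPM to 358, 358 and 348 CPM. Its partner Cdk1 was higher in blastocyst, at 410, 478 and 468 CPM against 89.0, 91.7 and 86.2 CPM, while blastocyst pools held less of it (transcriptome -1.74). The difference between the 2 kinds of library was 4.07 for Cdk1 (limma interaction, adjusted p = 1.2e-07). Rec8, a cohesin subunit of meiosis, was the other gene that rose, to 6.04, 3.90 and 6.88 CPM from at most 0.0132 CPM.

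In 16 pairs, a gene listed as an oocyte form was set beside a related gene listed as the general form. The listing does not mean that a form is confined to oocytes or prevails there. In GV heavy fractions the oocyte forms took from 0.157% (Rec8) to 99.63% (Ldhb) of the CPM of their pair. Rec8 was at 0 CPM in every GV pool. Oocyte forms were lower in blastocyst in 14 of 16 pairs (median -7.22). General forms were higher in 4, lower in 5 and not called in 7 (median 0.17). In 10 pairs the oocyte form was lower while its general form was not, and in 3 of these the general form was higher. Those 3 were Pabpc1l with Pabpc1, Npm2 with Npm1, and Ldhb with Ldha. Ldhb, a lactate dehydrogenase subunit, went from 1222, 1295 and 1966 CPM to 1.84, 3.62 and 5.28 CPM. Ldha, the other subunit, went from 3.35, 7.69 and 4.76 CPM to 236, 174 and 205 CPM. All 3 gradients of a stage lay on the same side for both genes. Pabpc1, the poly(A)-binding protein of most cells, rose from 2.56, 5.50 and 17.2 CPM to 37.1, 21.4 and 47.5 CPM, though it was not called with fractions 7 to 10 as heavy (1.72, limma adjusted p = 0.0568) or 8 to 10 (1.42, 0.163), and the count of 3 pairs depends on it. Npm1, a nucleolar chaperone, rose by 1.88 while Npm2, the oocyte's histone chaperone, fell by 5.45. H1f0 (0.82), Eif4e (0.19), Ybx1 (0.31), Btg1 (0.16), Aurkb (0.57), Wee1 (-0.57) and Bcl2l1 (-0.69) were general forms that were not called. Both forms of importin-alpha fell, Kpna7 by 9.02 and Kpna2 by 2.49. Rec8 and its general form Rad21 (2.14) both rose. Stag3, a meiotic cohesin subunit, differed by -0.84 and was not called. Some of these calls depended on the processing. H1f0 was called higher with the length trend removed (1.25), with edgeR (1.26), with DESeq2 (1.21), after quantile normalization (1.41) and without GV gradient A (1.07). Btg1 was called higher with the length trend removed (1.10) and Aurkb after quantile normalization (1.14). Smc1b, an oocyte form called lower, was not called with edgeR (-3.36, edgeR adjusted p = 0.119). Stag1, a general form called lower, was not called with all 8 stages in the fit (-2.46, limma adjusted p = 0.056).

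**Figure D3:**
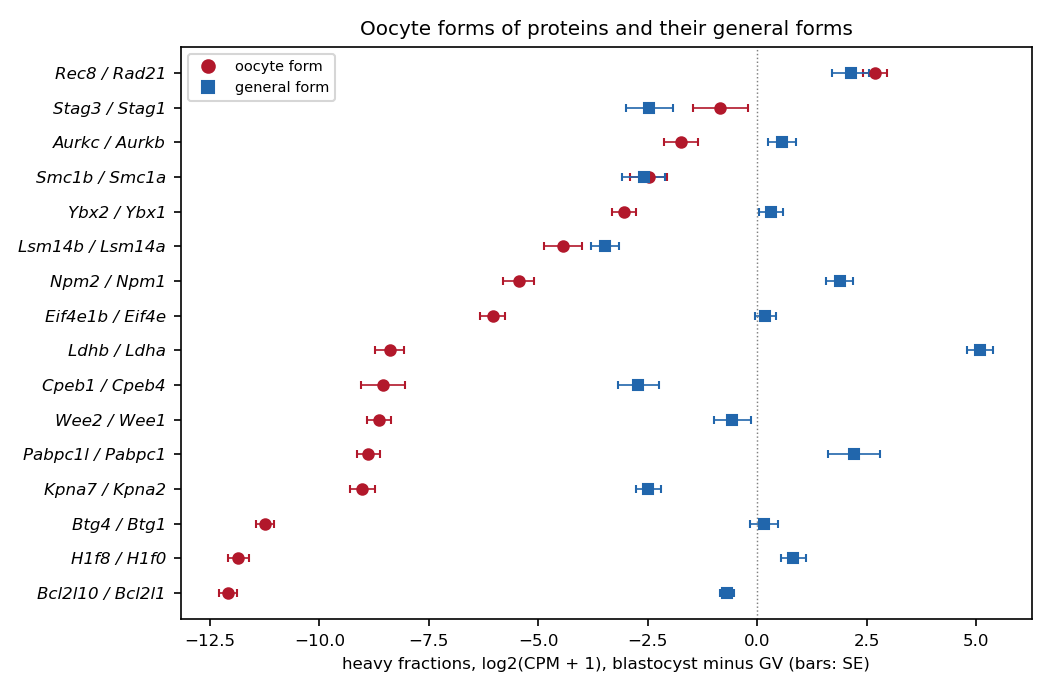
Stage difference in heavy fractions (x axis, log2 of CPM + 1, blastocyst minus GV, bars are SE) for 16 genes listed as oocyte forms (red circles) and their general forms (blue squares), ordered by the oocyte form. Most oocyte forms lie far to the left of their general form, from Bcl2l10 at -12.08 upward, and Rec8 at the top lies to the right of 0.

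The genes of the first embryonic cell types were mostly higher in blastocyst. Of 15 trophectoderm genes tested 14 were higher, and the median was 4.70. Cdx2, the transcription factor that specifies trophectoderm, was at 0 in GV and at 294, 296 and 282 CPM in blastocyst, at least 11120-fold higher. Krt8 went from 17.0, 8.84 and 11.1 CPM to 2107, 2620 and 3092 CPM. Gata3 rose least, from 14.1, 16.3 and 14.1 CPM to 59.1, 25.7 and 40.7 CPM. Fgfr2, the FGF receptor, was lower (-1.23), and blastocyst pools held more of it (1.32); with the length trend removed none of the 15 was lower, nor after quantile normalization, without fraction 9, with all 8 stages in the fit, with edgeR or with DESeq2. In the inner cell mass list 16 of 18 were higher (median 3.73, or 4.50 with bounds). Nanog, a pluripotency factor, rose from at most 0.0841 CPM to 162, 188 and 158 CPM, and Utf1 and Gdf3 rose by 7.92 and 6.80 from 0. Pou5f1, which the oocyte also expresses, went from 287, 235 and 196 CPM to 1342, 1713 and 1156 CPM. Esrrb, an orphan nuclear receptor, fell from 228, 167 and 146 CPM to 11.1, 5.17 and 10.7 CPM. Sox2 was at 4.13, 0 and 0 CPM in GV and 1.74, 0.158 and 1.14 CPM in blastocyst, groups that overlapped, although its transcriptome difference was 3.99.

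Primitive endoderm genes went both ways. In heavy fractions 5 of 15 were higher, 5 lower and 5 not called (median 0.46). Of all genes 30.2% were higher there and 42.9% lower. In the transcriptome 10 of 14 were higher and 2 lower (median 2.68), against 40.7% and 33.1% of all genes. Lrp2, an endocytic receptor, rose to 30.4, 22.4 and 52.8 CPM from 0, and Gata6 rose by 3.20. Lamb1, a laminin chain, fell from 698, 1393 and 658 CPM to 6.69, 0.403 and 9.27 CPM. Gata4 fell by 4.12. Sox17 and Pdgfra were not called, and their groups overlapped. The heavy difference lay below the transcriptome difference at 12 of 15 genes and above it at none, against 36.4% and 14.8% of all genes. With the length trend removed 8 of 15 were higher, 4 lower, and 9 lay below the transcriptome. Among all genes that fit gave 4396 higher and 4436 lower of 12526, and 3066 of 14076 below the transcriptome. edgeR called 3 lower. Their median transcript length was 2376 bases, against 1933 for all genes.

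Junction and blastocoel genes, which seal the outer layer and move water into the cavity, showed the same contrast between kinds of library. In heavy fractions 10 of 25 were higher and 10 lower, while in the transcriptome 18 of 25 were higher and none was lower. Among all genes 30.2% were higher and 42.9% lower in heavy fractions, and 40.7% and 33.1% in the transcriptome. Cldn6 and Cldn7, claudins of tight junctions, rose by 8.14 and 6.76, and Aqp3, a water channel, was at 0 in GV and at 186, 242 and 228 CPM in blastocyst. F11r, a junction adhesion molecule, rose by 7.63. Cdh1, which encodes E-cadherin, fell from 275, 339 and 232 CPM to 22.3, 13.9 and 28.4 CPM, although blastocyst pools held more of it (transcriptome 1.22). Tjp1, a scaffold of tight junctions, fell by 2.78 with a transcriptome difference of 1.15. With the length trend removed, as with edgeR and after quantile normalization, 6 of 25 were lower in heavy fractions, and with all 8 stages in the fit 2 were. The heavy difference lay below the transcriptome at 17 genes (36.4% of all genes). With the trend removed it did so at 11, against 3066 of 14076 among all genes. Of 27 actin, annexin and galectin genes, 22 were higher (median 3.06), led by Lgals1, which went from 1.65, 1.99 and 5.25 CPM to 1241, 544 and 1385 CPM. Vil1, the microvillus protein villin, fell by 7.35. Among 22 genes of FGF, Hippo, Nodal and LIF signalling, 8 were higher and 5 lower (median 0.40), against 30.2% and 42.9% of all genes. With the length trend removed, with edgeR and with DESeq2, 3 were lower. Tead4, the Hippo-pathway factor of trophectoderm, rose from 0 to 140, 126 and 109 CPM. Spry4, a feedback inhibitor of FGF signalling, fell by 7.10 and Il6st, a LIF co-receptor, by 4.38.

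**Figure D4:**
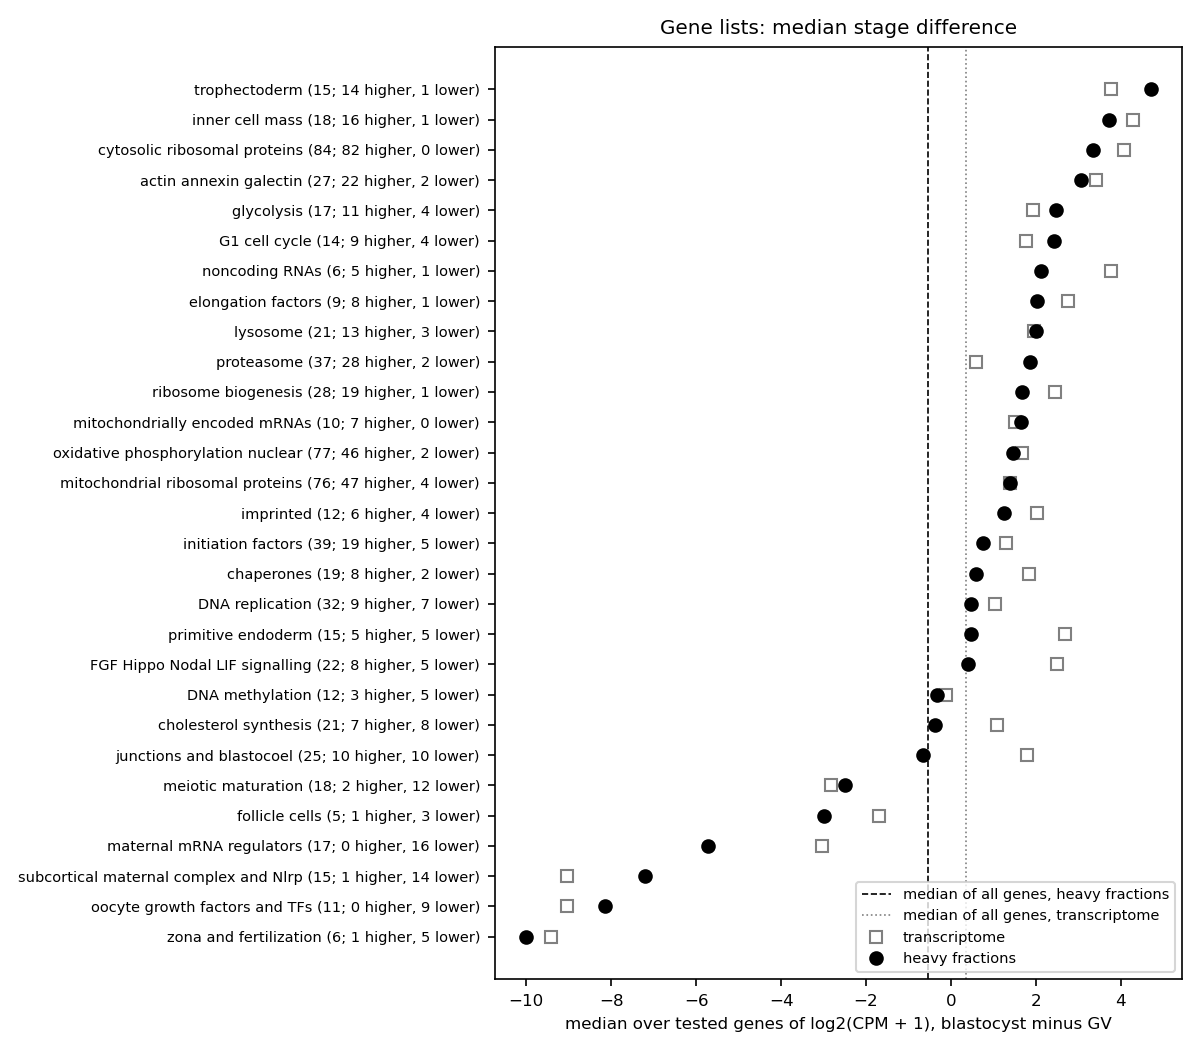
Median stage difference of each gene list (x axis, log2 of CPM + 1, blastocyst minus GV) in heavy fractions (filled circles) and transcriptome (open squares), with the number of genes tested and called in heavy fractions beside each name; dashed and dotted lines are the medians of all genes, -0.54 and 0.36. Among lists with at least 5 genes tested, the 4 lowest medians belong to oocyte lists, -10.01 to -5.73, and the trophectoderm list is highest at 4.70.

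Ribosomal protein transcripts were higher in blastocyst at nearly every gene tested. Of 84 cytosolic ribosomal protein genes, 82 were higher, none was lower and the median was 3.35. Summed over the list, they took 9080 to 10160 CPM of the GV gradients and 77580 to 83060 CPM of the blastocyst gradients. Rpl9 went from 2.73, 6.74 and 9.76 CPM to 1063, 1039 and 1037 CPM, and Rps3 from 55.0, 57.4 and 73.7 CPM to 2705, 2997 and 2648 CPM. Many of these genes have near-identical pseudogenes, and reads may be shared with them. The transcriptome moved alike, with 83 of 85 higher and a median of 4.07. The heavy difference lay below that of the transcriptome at 33 of 85 genes, close to the 36.4% of all genes, and above it at 3. With the length trend removed it lay below at 24, against 3066 of 14076 among all genes. Rps10 (0.01) and Rpl39l (0.8) were not called. Of 9 elongation factors 8 were higher. Eif5a, which keeps elongation moving and relieves stalled ribosomes, went from 306, 327 and 298 CPM to 10760, 13110 and 11390 CPM. Eef2k, the kinase that inhibits elongation factor 2, was the 1 that fell, from 807, 778 and 651 CPM to 13.2, 9.65 and 10.9 CPM.

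Initiation factors were higher at 19 of 39 genes and lower at 5, against 30.2% and 42.9% of all genes. Eif4ebp1, which blocks the cap-binding factor, rose by 6.23. Eif4a1, the helicase of the cap-binding complex, went from 48.7, 53.4 and 76.0 CPM to 2139, 3067 and 2501 CPM, while its transcriptome difference was 0.61. It had one of the 6 largest differences beyond the transcriptome (4.81, adjusted p = 1.5e-09). The 5 lower genes were Eif4e3 (-5.9), Eif4g3 (-4.4), Eif1b (-3.6), Eif5b (-3.4) and Eif4b (-1.9). Eif5b, which joins the ribosomal subunits, was at 42.7, 48.4 and 71.0 CPM in GV and 3.59, 3.22 and 5.60 CPM in blastocyst, with a transcriptome difference of 1.503. In ribosome biogenesis 19 of 28 were higher and 1, Polr1a, was lower (-1.6). Fbl, the methyltransferase of ribosomal RNA, rose by 5.42 and Nop16 by 5.97.

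The proteasome differed between heavy fractions and transcriptome. Of 37 genes 28 were higher in heavy fractions and 2 lower (median 1.86), while in the transcriptome 12 were higher and 6 lower (median 0.59). Heavy exceeded transcriptome at 19 of 37 genes and fell short at 2, against 14.8% and 36.4% of all genes. The removal of the length trend left 20 and 1, where 3594 and 3066 of all 14076 genes lay above and below. Psma5, a subunit of the core ring, went from 156, 117 and 129 CPM to 991, 1124 and 1177 CPM (3.03 ± 0.16), with 251 CPM in GV pools and 348 CPM in blastocyst pools. Psmb1, a core subunit, showed 359, 247 and 354 CPM in GV against 1012, 1042 and 1390 CPM, with a transcriptome difference of 0.20. Psmd13, a lid subunit, rose by 5.37 in heavy fractions and by 5.29 in pools. Psmb9, a subunit of the immunoproteasome, was at 0 in GV and 20.6 to 24.7 CPM in blastocyst. The 2 that fell were Psmb11 (-3.2), the subunit of the thymus form, and Psmd9 (-1.1), an assembly chaperone. Along the blastocyst gradient the summed proteasome level climbed from 9913 CPM in fraction 1 to 38050 CPM in fraction 9. In GV it stayed between 6981 and 8917 CPM apart from 13150 CPM in fraction 2. Every fraction's library is scaled to the same total, so such levels are shares within a fraction.

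Promoters of ribosomal protein and proteasome genes are shown because most members of both lists were higher in heavy fractions, 82 of 84 and 28 of 37. Ribosomal protein transcripts are known to start with a run of pyrimidines. Of 64 of these genes with a RefSeq window, 42.2% held a C followed by 5 bases that are each C or T on the gene's strand, between 5 bases before and 10 after the annotated start, against 9.4% of all windows. Of 31 proteasome genes with a window, 45.2% held CCGGAA on either strand, the core bound by ETS factors, as did 51.6% of the ribosomal protein windows and 15.2% of all windows. Capitals mark the pyrimidine run in Rps23, at chr13:90922872-90923171, and CCGGAA in Psmd13, at chr7:140882144-140882443, both on the plus strand (GRCm38.p6, RefSeq). These 2 have the largest rise among members whose window holds the motif, apart from members on a chromosome that was left out of the pick.
Rps23: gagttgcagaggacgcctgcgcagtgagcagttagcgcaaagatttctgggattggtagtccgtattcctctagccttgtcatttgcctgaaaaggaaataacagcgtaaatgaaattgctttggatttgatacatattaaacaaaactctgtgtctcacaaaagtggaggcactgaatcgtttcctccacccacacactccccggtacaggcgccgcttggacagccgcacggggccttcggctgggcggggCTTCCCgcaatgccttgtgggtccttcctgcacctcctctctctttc
Psmd13: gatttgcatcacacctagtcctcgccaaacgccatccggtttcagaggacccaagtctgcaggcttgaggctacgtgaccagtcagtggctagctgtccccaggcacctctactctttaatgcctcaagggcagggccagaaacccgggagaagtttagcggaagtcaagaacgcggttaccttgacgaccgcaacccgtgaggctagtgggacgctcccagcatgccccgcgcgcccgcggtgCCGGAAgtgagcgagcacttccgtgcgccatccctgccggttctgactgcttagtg

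In energy metabolism the lists had more genes higher than lower. Of all genes tested in heavy fractions 30.2% were higher and 42.9% lower. Of 77 nuclear genes of oxidative phosphorylation 46 were higher and 2 lower (median 1.47), and of 76 mitochondrial ribosomal protein genes 47 were higher and 4 lower (median 1.39). Cyc1, a subunit of complex III, went from 53.9, 36.5 and 42.5 CPM to 1944, 2005 and 1530 CPM. Of 17 glycolysis genes 11 were higher and 4 lower (median 2.46). Slc2a3, the glucose transporter of the embryo, went from at most 0.125 CPM to 338, 664 and 725 CPM, and Pgam1 rose by 5.38. Slc2a1, Pfkp and Pfkm fell beside Ldhb. With all 8 stages in the fit, 6 glycolysis genes were higher and 2 lower, and 28 mitochondrial ribosomal protein genes were higher and 1 lower. Taking fractions 8 to 10 as heavy gave 7 lower genes each in oxidative phosphorylation and the mitochondrial ribosome. Relative to the light side of the same gradient, 8 of 17 glycolysis genes were shifted toward heavy in blastocyst and 2 toward light, against 6.59% and 11.5% of all genes. With the length trend removed these were 9 and 1, against 1121 and 1031 of 12526 among all genes. Without blastocyst gradient B, and with the trend kept, shifts over all genes fell to 508 calls. The summed level climbed from 2534 CPM in fraction 1 to 11350 CPM in fraction 10 of the blastocyst gradient and peaked at 12110 CPM in fraction 2 of GV. Cholesterol synthesis had 7 of 21 genes higher and 8 lower, near the 30.2% and 42.9% of all genes (4 and 4 with all 8 stages in the fit, and 4 higher without blastocyst gradient A). Pmvk and Mvk, kinases of the mevalonate pathway, rose by 5.45 and 5.31. Lysosome genes were higher at 13 of 21, among them the cathepsins Ctsz (8.03) and Ctsa (5.98). Of 19 chaperones 8 were higher, or 4 with all 8 stages in the fit, and 2 lower, with Cct6a (6.02), Hsp90ab1 (4.55) and Cct7 (4.38) in front.

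In the cell cycle, 9 of 14 genes of G1 were higher and 4 lower, against 30.2% and 42.9% of all genes (median 2.43, or 2.51 with bounds). Cdkn1a, the p21 inhibitor, rose from 0.486, 2.18 and 1.71 CPM to 112, 128 and 117 CPM, and Ccne1 and Cdk4 rose by 4.17 and 3.96. DNA replication genes were higher at 9 of 32 and lower at 7, against 30.2% and 42.9% of all genes. Rrm2, which makes deoxyribonucleotides, rose by 3.22, and the helicase subunit Mcm4 and clamp loader Rfc1 fell by 3.80 and 3.08. With the length trend removed 13 were higher and 2 lower, where all genes gave 4396 and 4436 of 12526. Quantile normalization gave 16 higher, edgeR 14 higher, and all 8 stages in the fit 5 higher and 3 lower. Among genes of DNA methylation 5 of 12 were lower and 3 higher, also near those of all genes (42.9% and 30.2%). Tet3, the oxidase that acts on the paternal genome after fertilization, went from 730, 511 and 699 CPM to 0.577, 0.340 and 1.71 CPM, and Dnmt1, the maintenance methyltransferase, fell by 6.11. Zfp57, which protects imprints, fell by 7.23 and Dnmt3a and Uhrf1 by 4.5 each. Dppa3, a maternal protector of methylation, was higher with Tet2 and Mbd3, at 4745, 3556 and 4882 CPM against 419, 597 and 551 CPM, though its transcriptome difference was -0.14. Imprinted genes were higher at 6 of 12 tested, such as Slc38a4 (4.96), and lower at 4, such as Plagl1 (-5.78) and Mest (-5.65). Of all genes 30.2% were higher and 42.9% lower. Of the Y-linked list none was tested in heavy fractions: Eif2s3y was at 0 in GV and at 4.09, 0.202 and 5.73 CPM in blastocyst. Both genes tested of those active for a short time in the 2-cell embryo, Tcstv1 (-6.51) and Tcstv3 (-5.01), were lower.

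The same stages were compared in their transcriptomes, which give the relative amount of each transcript. Between pools 5435 of 13363 genes (40.7%) were higher in blastocyst and 4427 (33.1%) were lower, with a median of 0.36. Over 12189 genes tested in both, 3468 were lower in both and 3197 higher in both. Calls in opposite directions were 407 genes lower in heavy fractions and higher in the transcriptome, and 28 genes the other way round. Only the heavy fractions gave a call at 1394 lower and 446 higher genes. The 2 differences correlated across genes with r = 0.850, a description over genes that share libraries.

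A direct test asked at which genes the stage difference in heavy fractions was not that of the transcriptome. It called 2115 of 14265 genes (14.8%) with heavy above transcriptome and 5196 (36.4%) with heavy below, a share of calls above of 28.9%. That share became 51.3% after quantile normalization and 54.0% with the length trend removed, so the excess of genes below depends on the scaling. With the trend removed, 3594 genes lay above, 2082 of them called before, and 3066 below, 3064 of them called before. Heavy exceeded transcriptome most at C130073F10Rik (6.84), Eif4a1 (4.81), Babam1 (4.67), Rnf5 (4.61), Pdcl3 (4.44) and Rps3a2 (4.17). Babam1, a member of the BRCA1-A complex, went from 3.80, 3.72 and 5.59 CPM to 195, 184 and 143 CPM with a transcriptome difference of 0.36. Rnf5, a ubiquitin ligase of the endoplasmic reticulum, rose by 3.03 in heavy fractions while its transcriptome fell by 1.58. C130073F10Rik and Rps3a2 may share reads with other copies.

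At the other end stood Lars2 (-8.52), Rn18s (-7.55), Kmt2d (-7.22), Syne3 (-6.62), Espl1 (-6.37) and Sema4b (-6.09). Rn18s is 18S ribosomal RNA, which polyadenylated libraries should hold little of; it took 3.8 to 11.2% of blastocyst pools and 0.33 to 0.71% of blastocyst heavy means, and Lars2 is known to collect ribosomal RNA reads, so both values are uncertain. Kmt2d, a histone methyltransferase with a long transcript of 10352 bases, had 480, 434 and 561 CPM in GV heavy fractions and 4.01, 3.23 and 7.80 CPM in blastocyst, with a transcriptome difference of 0.79. Its value was -5.42 with the length trend removed. Espl1, the separase that cuts cohesin, went from 704, 409 and 512 CPM to 14.8, 29.0 and 20.6 CPM while pools held more in blastocyst (1.77). Syne3, which links the nuclear envelope to the cytoskeleton, went from 216, 136 and 198 CPM to 0, 0 and 0.457 CPM.

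Within each gradient, heavy minus light sets a transcript's share of the heavy libraries against its share of the light ones. Every fraction's library is scaled to the same total, so this is relative to other transcripts and does not count molecules. The stage changed this difference at 836 of 12682 genes toward the heavy side in blastocyst (6.59%). At 1460 it changed toward the light side (11.5%), and the median was -0.21. The share of calls toward heavy was 36.4%, and it became 51.0% after quantile normalization and 52.1% with the length trend removed. It depended on single gradients: without blastocyst gradient B it gave 195 and 313 calls, and without blastocyst A 273 and 572. GV fraction 1 held 0.010 and 0.023 M reads in gradients A and B and enters the light side. With fractions 2 to 5 as light, 1132 genes were called toward heavy and 1929 toward light. Across genes, heavy and light levels correlated with r = 0.955 in GV and 0.942 in blastocyst (a description over genes that share gradients), and heavy minus light passed 1 in either direction at 18.3% of genes in GV and 24.2% in blastocyst.

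The largest shifts toward heavy in blastocyst were at Gm2606 (3.85), Gm13394 (3.65), Ints11 (3.49), Babam1 (3.41), Kdm8 (3.33) and Aldoa (3.26). Aldoa, a glycolytic aldolase, peaked at 7750 CPM in fraction 2 of GV and at 3772 CPM in fraction 10 of the blastocyst. Krt8 shifted by 2.80, from 760.7 CPM in fraction 1 to 7028 CPM in fraction 10 of the blastocyst. Proteasome genes shifted toward heavy at 14 of 37 and toward light at 1, against 6.59% and 11.5% of all genes. The largest shifts toward light were at Arl5c (-5.55), Zfp131 (-5.51), Pdzd2 (-5.46), Fat1 (-5.15), Trip4 (-4.72) and R3hdm1 (-4.69). The call of Arl5c was lost in limma with a pseudocount of 0.1 (adjusted p = 0.0757), without the filter (0.101), after quantile normalization (0.0668), with the gradient letter as a block (0.102) and when any gradient other than GV C was left out (0.0926 to 0.157). Fat1, a giant cadherin, had 56.1, 50.5 and 47.9 CPM in GV heavy fractions and 1.95, 0.486 and 2.70 CPM in blastocyst, with 14639 bases of transcript and a shift of -3.71 once the length trend was removed. Pabpc1, whose transcript belongs with those of the ribosomal proteins in its control by growth signals, shifted toward light by 3.95, with 282.5 CPM in fraction 3 and 25.3 CPM in fraction 10 of the blastocyst.

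RNAs listed as noncoding and transcripts of the mitochondrial genome were followed along the gradient. Noncoding RNAs were shifted toward light in blastocyst at 5 of 6 genes (median -2.29), against 11.5% of all genes. Their heavy difference lay below the transcriptome at 7 of 8, against 36.4% of all genes. Their sum fell from 1369 CPM in fraction 1 to 66.79 CPM in fraction 10 of the blastocyst. In GV it was 129.1 CPM in fraction 1, where gradients A and B held only 0.010 and 0.023 M reads. It was 4.2 CPM in fractions 3 and 4, and 31.0 and 28.5 CPM in fractions 9 and 10. Within GV it was thus higher at the heavy end than in the middle. Gas5, a host of small nucleolar RNAs, went from 9.30, 13.5 and 9.79 CPM to 86.9, 77.4 and 74.1 CPM in heavy fractions with a shift of -3.92. Malat1, a nuclear RNA, rose by 3.08 in heavy fractions and by 7.21 in pools. Transcripts of the mitochondrial genome, which mitochondrial ribosomes translate, summed to 37320 CPM in fraction 2 of the blastocyst and 512.4 CPM in fraction 10. In GV they summed to 3383 CPM in fraction 1, between 57.5 and 502.1 CPM in fractions 2 to 9, and to 799.9 CPM in fraction 10. The fraction 1 value came mostly from gradient C, where they took 0.795% of reads. In the shallow libraries of A and B they took 0.115% and 0.105%. In heavy fractions 7 of 10 were higher and none was lower, against 30.2% and 42.9% of all genes. With fractions 7 to 10 as heavy, however, 4 were higher, and with fractions 8 to 10 none was higher and 2 were lower. With fractions 6 to 10 COX1 stood at 102, 129 and 90.4 CPM in GV and 805, 307 and 547 CPM in blastocyst. Fewer cells of a type and less RNA per cell cannot be told apart in these pooled samples.

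**Figure D5:**
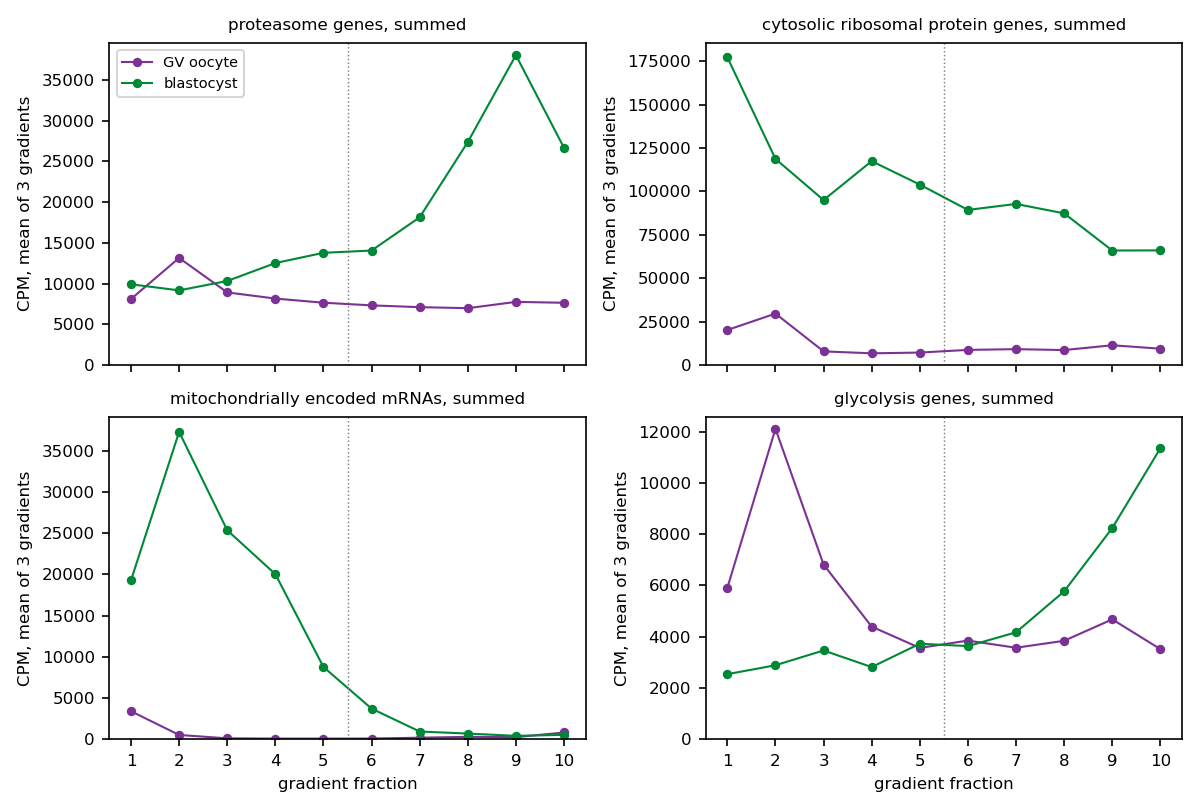
Summed CPM of 4 gene lists (y axis, mean of 3 gradients) along fractions 1 to 10 (x axis) in GV oocyte (purple) and blastocyst (green); the dotted line parts fractions 1 to 5 from 6 to 10. In the blastocyst the proteasome peaks at 38050 CPM in fraction 9 and glycolysis at 11350 CPM in fraction 10. There, mitochondrially encoded mRNAs peak at 37320 CPM in fraction 2, and ribosomal protein genes decline from 177200 CPM in fraction 1. Levels are shares within a fraction.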

How the data were processed

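Sucrose gradient fractions and pools were amplified with a Smart-seq kit, which reads polyadenylated RNA, per the labels' protocols. Trim Galore 0.6.7, FastQC, HISAT2 2.2.1, featureCounts 2.0.1, edgeR and the GRCm39 build are named in the submitters' processing notes, without roles, and the annotation is not given in the sources used here. The authors deposited 1 table of CPM, 15854 symbols by 272 libraries. Because some symbols repeat other rows' values, the sums of some deposited columns, the blastocyst pools among them, pass the CPM total, and such columns were recorded as signal. These signal values, as the authors deposited them, have the steps of CPM and were used as CPM. Of 159 symbols in 76 groups with identical values, 1 per group was kept, which left 15771. All values were whole multiples of 1 read within 0.05 reads. Amplified reads carry no molecular identifiers, so floors of 3 reads cover counting error only.

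Tests used limma 3.58.1 in R 4.3.3 (lmFit, eBayes with a trend) on log2(CPM + 1), with Benjamini-Hochberg adjustment over all genes tested; low genes are understated on this scale. A gene was called at an adjusted p under 0.05 and a difference of at least 1. Folds against a group at the floor are lower bounds, computed against 3 reads per gradient. Only the 2 stages entered each fit, with 6 gradients, 8 pools, or both. edgeR 4.0.16 (quasi-likelihood) and DESeq2 1.42.0 on recovered whole reads were alternatives, and edgeR called 3986 genes higher and 4424 lower in heavy fractions. Other alternatives were another pseudocount, no filter, other normalizations, other fractions, each replicate left out and all 8 stages in the fit. After the data were seen, fits without fraction 9, with fractions 2 to 5 as light, and without each sample's loess trend over transcript length were added. Lengths (GENCODE M21) were found for 98.2% of genes. The code was tested on simulated data.

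Gene lists, pairs and the comparison itself were chosen with earlier results of these data known. Genes named are the 12 largest rises and falls among called genes with no overlap and a mean of at least 10 CPM (near-identical copies of a named gene left out), 3 per list, all pairs, the 6 largest in each direction beyond the transcriptome and in position, and fixed cell type markers; other list members were picked after their values were seen. Promoters are the first RefSeq window per symbol.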

Additional observations from a re-analysis of the deposited data

How the results depend on the processing

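Counts of calls in heavy fractions and in the transcriptome stayed within 1.5 times their values under every alternative run. Leaving out 1 sample gave 8943 to 9243 calls in heavy fractions, 9844 to 9875 in the transcriptome and 7047 to 7472 beyond the transcriptome. Of 158 named genes tested in heavy fractions, 142 kept their side of the threshold under every alternative. No named gene changed direction past the threshold.

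Beyond the transcriptome, quantile normalization gave 3577 genes higher and 3399 lower, all 8 stages in the fit gave 991 and 2875 (3866 in all), and removal of the length trend gave 3594 and 3066. The cause of these changes was not tested. For heavy minus light, a pseudocount of 0.1 gave 1452 calls (517 higher, 935 lower) and quantile normalization gave 926 lower. Taking fractions 2 to 5 as light gave 1132 higher and 1929 lower. Leaving out 1 gradient gave 508 to 1589 calls, 195 to 585 higher and 313 to 1147 lower, with fewer samples in each fit; the lowest came without blastocyst gradient B, and 845, 1092 and 1107 came without blastocyst A, GV B and blastocyst C. The gradient letter as a replicate block gave 1115 calls for heavy minus light (356 higher, 759 lower) and 3866 higher and 5482 lower in heavy fractions. Same-lettered gradients did not deviate together, with r of -0.015, -0.083 and 0.039, so letters were taken as names. The comparison beyond the transcriptome had no such fit. Whether same-lettered gradients and pools of a stage deviate together was not tested. That comparison and heavy minus light were not run with edgeR or DESeq2.

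Depth limits the light side of GV gradients A and B, and each stage has 3 gradients.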
